A study of Mus musculus with 25 samples.

Results

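The adipokines secreted by white fat were followed in perigonadal white fat (pgWAT) of male mice that carried or lacked the glucose-responsive transcription factor ChREBP. The genes were Adipoq, Lep, Retn, Cfd, Rbp4, Nampt, Nrg4, Apln and Rarres2, and every probe whose gene name on the array was one of these symbols was taken. This gave 9 genes with 14 probes, and all 14 were among the 39619 probes that passed the filter on dim spots, out of 56605 distinct gene probes on the array. For a gene with several probes, the probe that was brightest on average (the leading probe) stood for the gene in counts.

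RNA of each mouse was hybridised to 1 single-colour Agilent array, and 25 arrays were analysed. ChREBPβ KO mice (6 arrays) lacked the exon of Mlxipl, the gene of ChREBP, that is particular to the β isoform. It had been removed by CRISPR/Cas9 in one-cell embryos, and their wild-type littermates formed the ChREBPβ WT group (7 arrays). Total ChREBP KO mice (5 arrays) were Mlxipl-null and lacked the α and β isoforms, and their wild-type littermates formed the total ChREBP WT group (7 arrays). All mice were male C57BL6/J fed a regular diet, and all were fasted for 24 h and then refed for 18 h with food and drinking water that held 20% glucose, so that no group was left unfed or without glucose. Both deletions were present in every tissue, so a level in pgWAT can also follow from loss of the factor elsewhere. The age of the mice was not given in the sources used here.

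Adipokines are proteins that fat releases into the blood. Leptin (Lep) reports fat stores to the brain and curbs feeding, and adiponectin (Adipoq) is the abundant adipocyte hormone that goes with insulin sensitivity. Resistin (Retn) is made by adipocytes in mice and opposes insulin action, and adipsin (Cfd, complement factor D) is the protease that starts the alternative complement pathway. Retinol binding protein 4 (Rbp4) carries vitamin A in plasma, and chemerin (Rarres2) is a ligand for a receptor on macrophages, dendritic cells and adipocytes. The liver is a major source of both. Nampt makes a precursor of NAD and is also found outside cells as visfatin, neuregulin 4 (Nrg4) is a ligand of ErbB4, and apelin (Apln) acts on its own receptor on vessels and other tissues.

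The array measured a transcript through a stretch of 60 bases, and the probes of the most abundant or best-known hormones are shown so that a reader can see what each value was read from. Probe positions are on the mouse build mm9, on the plus strand for these genes, and the exon or other part of the gene was not assigned because no annotation of that build was used. The Adipoq probe lies at chr16:23157576-23157635, the Lep probe at chr6:29020910-29020969 and the leading Retn probe at chr8:3657312-3657371. For Cfd the dimmer of 2 probes is shown, at chr10:79355274-79355333. Its 32 capital letters (bases 29 to 60) are the stretch it shares with the leading Cfd probe at chr10:79355302-79355361, so that these probes are not separate readings of the gene.
Adipoq: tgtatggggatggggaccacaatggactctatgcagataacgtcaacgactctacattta
Lep: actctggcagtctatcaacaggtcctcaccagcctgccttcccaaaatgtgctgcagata
Retn: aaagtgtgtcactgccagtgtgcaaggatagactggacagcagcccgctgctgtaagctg
Cfd: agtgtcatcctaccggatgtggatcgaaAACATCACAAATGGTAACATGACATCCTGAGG

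No probe of these genes shared a run of 20 bases with a probe of another gene. The other probes lie at chr8:3659757-3659816 (Retn, plus strand), chr19:38191129-38191188 (Rbp4, minus strand), chr12:33535475-33535534 (Nampt, plus strand), chrX:45378593-45378652 (Apln, minus strand) and chr6:48519775-48519969 (Rarres2, minus strand). The Rarres2 probe thus covered 195 bases of the genome with its 60 bases. Nrg4 had 4 probes on the minus strand of chromosome 9, at 55068030 to 55068089 (leading), 55074489 to 55074548, 55075745 to 55084303 (a span of 8559 bases) and 55088520 to 55088579. The last of these was designed on a cDNA rather than on the RefSeq transcript.

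Promoter windows (250 bases before to 50 after the annotated start) were taken from RefSeq on GRCm38.p6, and 8 of the 9 genes had 1 or more, in 9 windows. Rarres2 was not matched. The window of Lep and a window of Rbp4 are shown because these were the genes, beside Rarres2, called as different between the wild types of the lines. Rbp4 had another window, at chr19:38125272-38125571 on the minus strand, which is not shown. Both strands of each window were searched for an E-box, for the paired E-boxes of a carbohydrate response element, for a palindrome bound by C/EBP factors, for a nuclear receptor half-site and for a TATA box, and capitals mark the matches.
Lep, chr6:29059971-29060270, plus strand: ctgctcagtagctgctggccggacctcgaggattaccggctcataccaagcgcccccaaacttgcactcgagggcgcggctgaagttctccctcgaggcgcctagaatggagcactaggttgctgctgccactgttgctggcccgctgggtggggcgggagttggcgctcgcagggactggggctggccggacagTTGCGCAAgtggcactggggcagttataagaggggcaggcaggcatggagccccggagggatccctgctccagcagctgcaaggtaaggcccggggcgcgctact
Rbp4, chr19:38124762-38125061, minus strand: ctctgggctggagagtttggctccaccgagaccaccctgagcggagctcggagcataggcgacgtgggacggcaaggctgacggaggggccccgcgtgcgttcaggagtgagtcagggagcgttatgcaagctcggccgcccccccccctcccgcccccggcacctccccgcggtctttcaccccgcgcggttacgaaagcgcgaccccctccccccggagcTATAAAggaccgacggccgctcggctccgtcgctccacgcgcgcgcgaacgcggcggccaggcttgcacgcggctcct

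The capitals in Lep are TTGCGCAA at -55 from the start, a match that 60 of all 32851 promoter windows of this length (0.183%) had. The capitals in the window of Rbp4 that is shown are TATAAA at -28, which 13.6% of windows had. The other window of Rbp4 held no match to any of these patterns. The half-site AGGTCA was found in the window of Nampt (at -151) and in that of Nrg4 (at -90 and -26), against 16.3% of all windows. The E-box CACGTG was in 0 of the 9 windows and in 7.15% of all. The paired form, which is that E-box repeated after any 5 bases and so overlaps with it, was in 0 of all 32851. Its absence from the adipokine windows therefore shows nothing about them. Carbohydrate response elements with inexact E-boxes were not searched for. These are matches of letters and were not tested for binding.

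Raw median intensities ran from 84 to 127 over the arrays, where the local background was 15 to 22. The precision of a difference depends on how many arrays a group has and on the spread of the probe between mice. All 14 adipokine probes were well above background on all 25 arrays and none was saturated. The labels gave 4 wash batches, and each batch held all 4 groups. Of 3 Mlxipl probes, the brightest had a mean log2 level of 15.08 ± 0.27 (SD, n = 7) in WT and 14.36 ± 0.32 (n = 6) in KO mice of the ChREBPβ line, and of 15.96 ± 0.2 (n = 7) and 14.21 ± 0.08 (n = 5) in those of the total line. It fell by 1.75 log2 units in total ChREBP KO (SE 0.15, adjusted p = 3.17e-08) and was at -0.73 in ChREBPβ KO (SE 0.14, adjusted p = 0.14), with no overlap between KO and WT arrays in the total line (14.08 to 14.29 against 15.64 to 16.28). The other Mlxipl probes were at -0.66 (adjusted p = 0.00109) and 0.08 (adjusted p = 0.687) in total ChREBP KO and at -0.47 and -0.05 in ChREBPβ KO. Whether these probes lie in a deleted part was not determined, so they are no check of the genotypes. The adipocyte marker list (15 genes, all kept) was bright on every array, with an array mean of 15.45 to 15.86. The liver marker list (18 genes, Rbp4 and Rarres2 not among them) was not low on every array. In the ChREBPβ line its array mean ran from 12.06 to 15.62 (WT) and from 10.55 to 14.88 (KO) on the log2 scale, and in the total line from 7.85 to 12.56 (WT) and from 7.71 to 8.56 (KO). The total ChREBP WT array of replicate 2 had the highest liver mean of its group (12.56) and the highest epididymis marker mean of all arrays (8.49, where 7 of 20 listed genes were kept). Of the other lists, macrophage markers (14 genes, led by Lyz2) had array means of 11.55 to 12.66, endothelial markers (12 genes, led by Egfl7) of 11.92 to 12.7, mesothelial markers (11 genes, led by Krt18) of 9.33 to 11.17, brown fat markers (10 genes, led by Cox8b) of 8.32 to 9.5 and kidney markers (6 genes, led by Cdh16) of 5.66 to 9.92.

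The first question was whether loss of the β isoform, or of both isoforms, changed the adipokine transcripts of refed pgWAT. In ChREBPβ KO mice 0 of the 9 genes passed the test against ChREBPβ WT (limma, Benjamini-Hochberg adjusted p under 0.05 over all 39619 probes). In the same comparison 2 probes in all passed, or 0.00505% of those tested (0.00252% higher and 0.00252% lower), and 0.0656% separated the groups with no overlap. Lep and Apln were the 2 genes with an unadjusted p under 0.05 in it, as 9.21% of all probes had. The median log2 difference of the 9 genes was 0.06, against 0.02 over all probes, and the differences ran from -0.2 to 0.75.

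In total ChREBP KO mice 2 of the 9 genes rose against total ChREBP WT and none fell. These were Rbp4 and Rarres2. Over all probes 8.95% passed in this comparison, 5.48% higher and 3.47% lower. An unadjusted p under 0.05 was found for 4 genes (Cfd, Rbp4, Apln and Rarres2) and for 20.4% of all probes. All 9 differences were above 0, with a median of 0.25 against 0.02 over all probes and a range of 0.06 to 0.78. In bulk tissue, fewer cells of a type and less RNA per cell cannot be told apart, and this holds for each level given here.

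The difference between the effects of the deletions, which tests whether an adipokine responded otherwise to loss of both isoforms than to loss of β alone, passed for 0 of the 9 genes, where 3.24% of all probes passed. Of the 9, 3 had an unadjusted p under 0.05 (Cfd, Rbp4 and Rarres2), against 12.9% of all probes. Set against ChREBPβ WT, 3 of the 9 genes were lower in total ChREBP WT and none was higher, where 22.1% of all probes differed (14.7% higher and 7.38% lower). These were Lep, Rbp4 and Rarres2. Unadjusted, 5 genes (these, Nampt and Apln) and 34.1% of all probes had a p under 0.05. The groups come from separate lines, and each wild-type group serves both in this comparison and as the control of its own knockout.

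**Figure D1:**
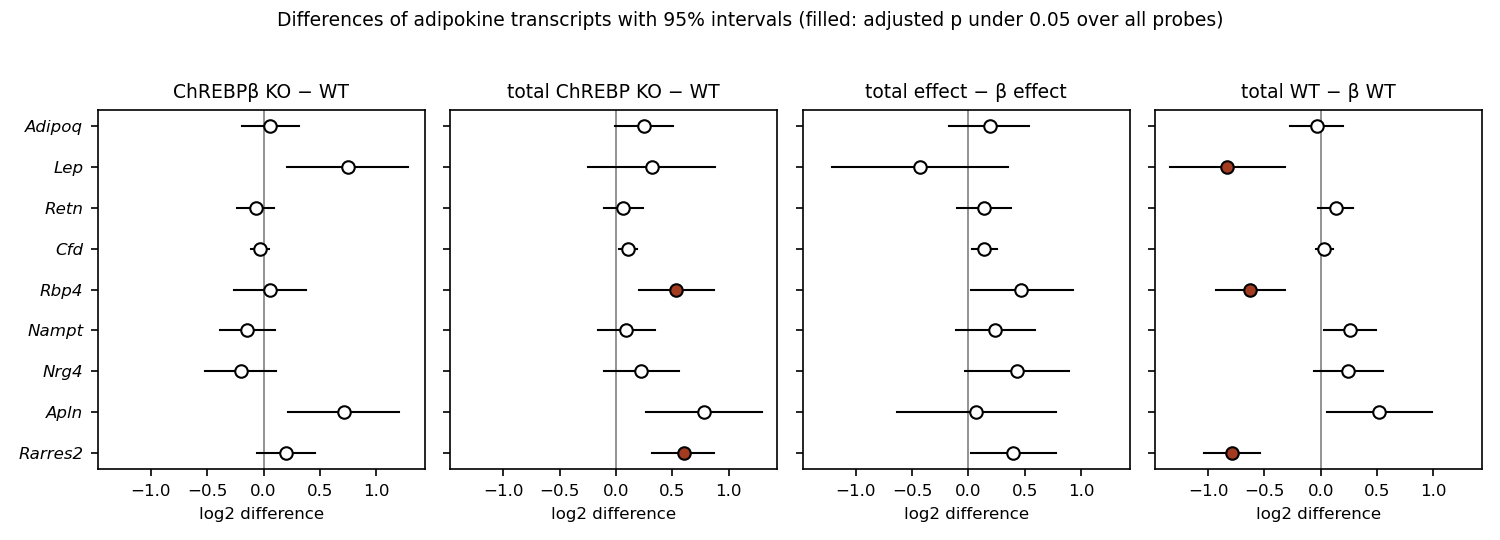
Log2 difference of the leading probe of each adipokine (points) with its 95% interval (lines) in the 4 comparisons, filled where the adjusted p over all probes was under 0.05. The filled points are Rbp4 (0.53) and Rarres2 (0.6) in total ChREBP KO and Lep (-0.83), Rbp4 (-0.63) and Rarres2 (-0.79) between the wild types, and no point is filled in the ChREBPβ KO comparison or in the difference between the effects.

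**Figure D2:**
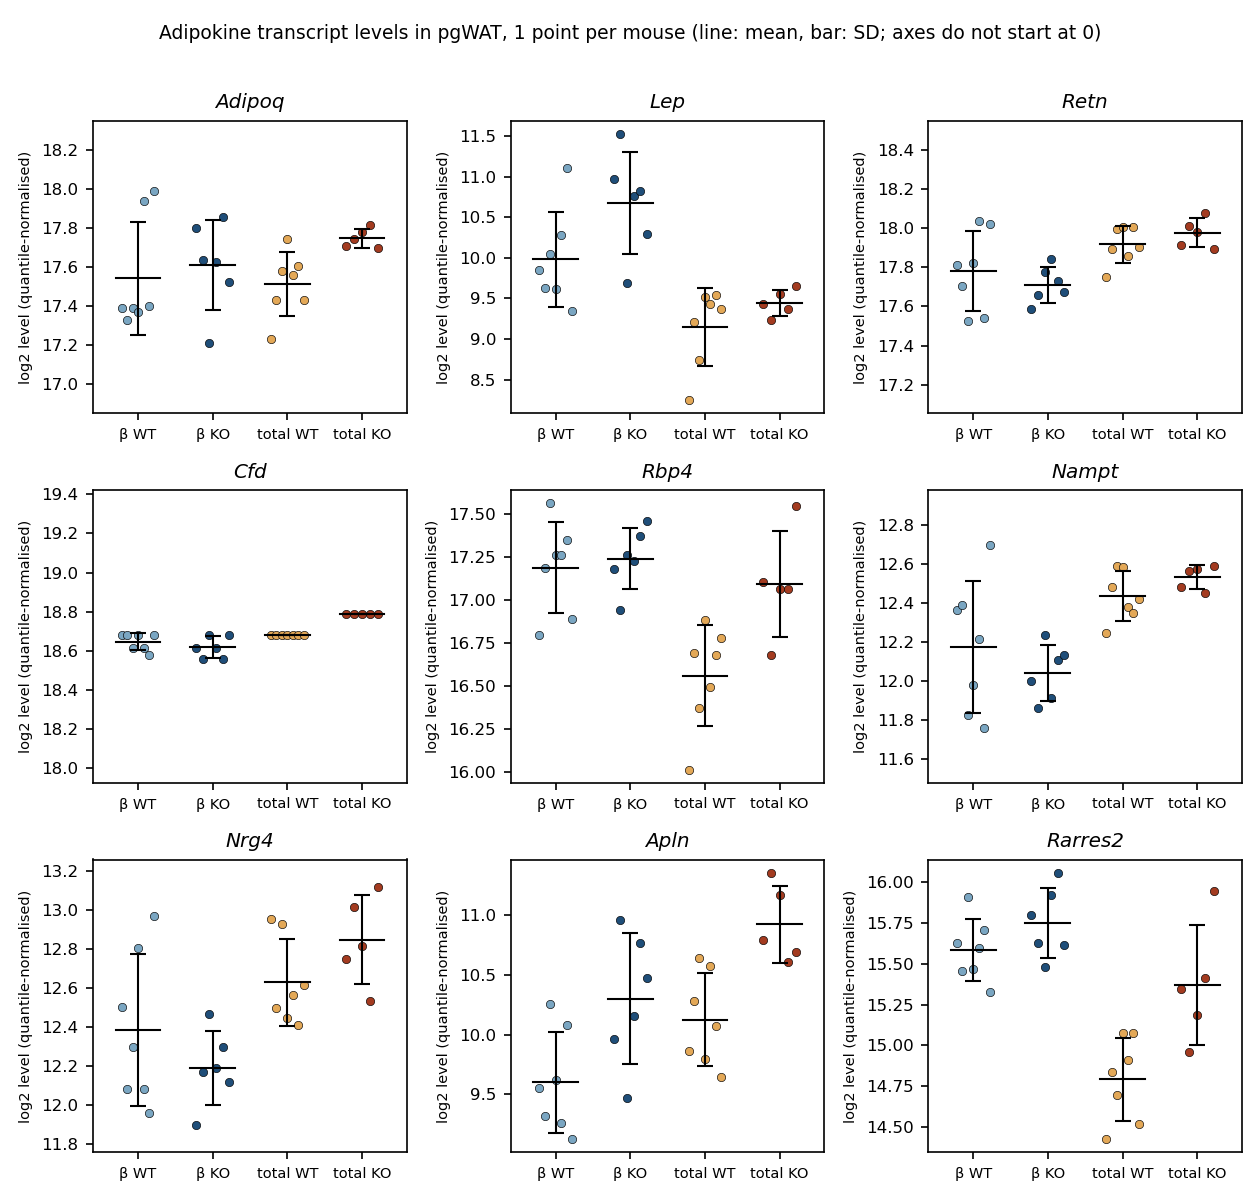
Quantile-normalised log2 level of each adipokine on each of the 25 arrays, 1 point per mouse, with the group mean (line) and SD (bar); the axes do not start at 0. The total ChREBP WT arrays of Rarres2 (14.43 to 15.08) lie below all ChREBPβ WT arrays (15.33 to 15.91), and the Cfd arrays take a single value in total ChREBP WT and another in total ChREBP KO.

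Leptin was the most variable adipokine in the ChREBPβ line. Its log2 level was 9.34 at the lowest, 9.86 at the median and 11.11 at the highest in the 7 ChREBPβ WT arrays. In the 6 ChREBPβ KO arrays these were 9.69, 10.79 and 11.53. Only 1 of the 6 KO arrays lay above all WT arrays, so the groups overlapped. The difference was 0.75 (95% interval 0.21 to 1.28, SE 0.26), a 1.68-fold higher mean, with an adjusted p of 0.38 (limma), and it did not pass. Within the 4 wash batches, which held 1 or 2 arrays of each group, the difference was 0.49, 1.9, 0.29 and 0.75, above 0 in each. The adjusted p was 0.0979 to 0.748 when 1 array was left out.

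In the total line Lep was lower and tighter. The total ChREBP WT arrays had 8.25, 9.37 and 9.54 as lowest, median and highest log2 level, and the 5 total ChREBP KO arrays were at 9.43, 9.23, 9.55, 9.37 and 9.65. The KO and WT arrays overlapped, at a difference of 0.32 (95% interval -0.25 to 0.88, adjusted p = 0.597). Of the 7 total ChREBP WT arrays, 3 lay below all ChREBPβ WT arrays. The difference between the wild types was -0.83 (95% interval -1.34 to -0.32), 1.78-fold lower in total ChREBP WT, with an adjusted p of 0.0191 (limma). It was between -1 and -0.42 in each of the 4 wash batches. Without the ChREBPβ WT array of replicate 7, which had the highest Lep level of its group (11.11), the difference was -0.68 and the adjusted p 0.0527. The order of the group means was ChREBPβ KO (10.68), ChREBPβ WT (9.98), total ChREBP KO (9.45) and total ChREBP WT (9.15), and neither knockout passed the test against its own wild type. ChREBPβ WT was not tested against total ChREBP KO.

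Adiponectin showed no difference that passed. Its log2 level was 17.33, 17.39 and 17.99 (lowest, median and highest) in ChREBPβ WT, 17.21, 17.63 and 17.86 in ChREBPβ KO and 17.23, 17.56 and 17.74 in total ChREBP WT. The 5 total ChREBP KO arrays were at 17.7, 17.74, 17.78, 17.81 and 17.69, and 2 of them lay above all total ChREBP WT arrays. The SD in total ChREBP KO was 0.05, against 0.16 to 0.29 in the other groups. The difference was 0.25 in total ChREBP KO (95% interval -0.01 to 0.51, adjusted p = 0.28) and 0.06 in ChREBPβ KO (-0.19 to 0.31, adjusted p = 0.931). The wild types differed by -0.03 (-0.27 to 0.2), and the value moved with the processing, from -0.36 with the liver mean as a covariate to 0.16 with processed signals at a common 75th percentile.

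Resistin was read by 2 probes, and neither was called in any comparison. On the leading probe, the lowest, median and highest log2 level was 17.53, 17.81 and 18.04 in ChREBPβ WT, 17.58, 17.7 and 17.84 in ChREBPβ KO and 17.75, 17.91 and 18.01 in total ChREBP WT. The 5 total ChREBP KO arrays were at 17.91, 18.01, 17.98, 18.08 and 17.9. The groups overlapped on this probe, and the KO difference was -0.07 (95% interval -0.24 to 0.09) in the ChREBPβ line and 0.06 (-0.11 to 0.24) in the total line. On the other probe all 5 total ChREBP KO arrays (17.76 to 17.81) lay above all 7 total ChREBP WT arrays (17.46 to 17.69), where 6.92% of all probes separated these groups in either direction. Its difference of 0.18 (SE 0.07) had an adjusted p of 0.105. In raw intensity, before normalisation, the groups overlapped on this probe. The WT arrays were at 179000 to 252000 (median 225000) and the KO arrays at 195000 to 238000 (median 226000). Retn was 0.14 higher in the wild types of the total line (adjusted p = 0.218), and this passed under other scalings, at 0.28 (adjusted p = 0.00477) with the processed signal and at 0.21 (adjusted p = 0.0412) in the authors' table.

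Adipsin was among the brightest probes of the tissue, and this limits what the normalisation can show. The leading Cfd probe was ranked 2 to 6 of 39619 on every array. Quantile normalisation gives each rank 1 value, so that a probe of such a rank can take few values. All 7 total ChREBP WT arrays were at a log2 level of 18.68 (rank 3) and all 5 total ChREBP KO arrays at 18.79 (rank 2). The ChREBPβ WT arrays were between 18.58 and 18.68 and the ChREBPβ KO arrays between 18.56 and 18.68. The total ChREBP KO arrays did not overlap with their wild types, but the step of 0.11 (SE 0.04, adjusted p = 0.0961) was a change of 1 rank. With processed signals at a common 75th percentile and no ranks, the same difference was 0.07 (SE 0.1, adjusted p = 0.788) and the groups overlapped, at 8.35 to 8.73 in WT and 8.51 to 8.81 in KO on that scale. The other Cfd probe had a difference of -0.07 in total ChREBP KO (adjusted p = 0.662) and -0.15 in ChREBPβ KO (adjusted p = 0.504).

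Retinol binding protein 4 rose in total ChREBP KO and was lower in the wild types of the total line than in those of the ChREBPβ line. The 7 total ChREBP WT arrays had a log2 level of 16.01 at the lowest, 16.68 at the median and 16.88 at the highest. The 5 total ChREBP KO arrays were at 17.11, 16.68, 17.06, 17.06 and 17.54, and 4 of them lay above all of the wild types. ChREBPβ WT arrays were at 16.8, 17.26 and 17.56 and ChREBPβ KO arrays at 16.94, 17.24 and 17.46. The rise was 0.53 (SE 0.16, 95% interval 0.2 to 0.87), or 1.45-fold, with an adjusted p of 0.0396 (limma). It was 0.24, 0.37, 0.96 and 0.71 in wash batches 1 to 4. This call stood near the threshold, and it was made in 9 of the 14 alternative settings (adjusted p of 0.0213 to 0.123). Leaving out total ChREBP WT replicate 2, 4, 6 or 7 or total ChREBP KO replicate 1, 3, 4 or 7 raised the adjusted p above 0.05, the highest being 0.178 without KO replicate 7, where the difference was 0.4. With processed signals at a common 75th percentile it was 0.42 (adjusted p = 0.123). In ChREBPβ KO the Rbp4 difference was 0.06 (-0.26 to 0.38), and the effects of the deletions differed by 0.47 (SE 0.22, adjusted p = 0.358), which did not pass.

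The wild types differed in Rbp4 by -0.63 (SE 0.15, 1.54-fold lower in total ChREBP WT, adjusted p = 0.0038), and 6 of the 7 total ChREBP WT arrays lay below all ChREBPβ WT arrays. The adjusted p stayed under 0.05 when any 1 array was left out. The order of the means was ChREBPβ KO (17.24), ChREBPβ WT (17.19), total ChREBP KO (17.09) and total ChREBP WT (16.56). The first 2 did not differ beyond their spread, and ChREBPβ WT was not tested against total ChREBP KO. The 5.48% and 7.38% of probes that went the same way as Rbp4 in its called comparisons are the background for it.

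Chemerin had the lowest adjusted p of the 9 genes in both comparisons in which any was called. Rarres2 was at a log2 level of 15.33, 15.6 and 15.91 in ChREBPβ WT and at 15.48, 15.71 and 16.06 in ChREBPβ KO. It was at 14.43, 14.84 and 15.08 in total ChREBP WT. The 5 total ChREBP KO arrays were at 15.35, 14.96, 15.19, 15.41 and 15.95, and 4 of the 5 lay above all total ChREBP WT arrays. The rise in total ChREBP KO was 0.6 (SE 0.13, 95% interval 0.32 to 0.87), 1.51-fold, with an adjusted p of 0.00507 (limma), and it was 0.3, 0.35, 0.96 and 0.87 in the 4 wash batches. It passed with any 1 array left out (0.48 to 0.7). In ChREBPβ KO the difference was 0.2 (-0.06 to 0.46, adjusted p = 0.672), and the effects differed by 0.4 (SE 0.18, adjusted p = 0.352), which did not pass.

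All 7 total ChREBP WT arrays lay below all 7 ChREBPβ WT arrays for Rarres2, a separation that 5.19% of all probes had. The difference was -0.79 (SE 0.12, 1.73-fold lower, adjusted p = 0.000125) and it was between -0.99 and -0.62 in each wash batch. The order of the means was ChREBPβ KO (15.75), ChREBPβ WT (15.59), total ChREBP KO (15.37) and total ChREBP WT (14.79), the same order as for Rbp4 and Lep.

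Since the liver makes Rbp4 and Rarres2, their levels were set beside the liver marker list of the same arrays. Between the wild types the liver list moved the same way as both genes, with a difference of -4.37 in the list mean. Of its 18 genes, 17 passed as lower in total ChREBP WT (94.4%, where 22.1% of all probes passed in either direction and 7.38% as lower). Serpina1a, a plasma protease inhibitor of hepatocytes, was at a mean log2 level of 17.57 ± 1.12 (SD, n = 7) in the wild types of the ChREBPβ line and 12.77 ± 1.89 (n = 7) in those of the total line. In the total ChREBP KO comparison the list mean differed by -1.8, with 1 of the 5 KO arrays below all wild types, while Rbp4 and Rarres2 rose. There 3 of the 18 liver genes passed (16.7%, against 8.95% of all probes), Fgb (-3.89) and Fgg (-3.66) lower and Cyp2e1 higher (0.93, adjusted p = 0.00618). Other marker lists also held genes that passed between the wild types. Of 10 brown fat genes 6 passed (60%), 5 higher and 1 lower. Of 15 adipocyte genes 5 passed (33.3%), 4 higher and 1 lower. In the macrophage, endothelial and mesothelial lists 0 passed. The epididymis list mean was 0.69 higher in the total line, with 6 of its 7 arrays above all ChREBPβ WT arrays. In that list 1 of 7 genes passed (Adam7, 3.73), or 14.3%, which is below the 22.1% of all probes. The correlation of the epididymis list over 25 arrays was -0.67 with Rbp4 (within groups -0.43) and -0.59 with Rarres2 (within groups -0.25), against 0.38 and 0.44 for the liver list. Of 6 kidney genes 3 passed (50%), all lower, with a difference of -0.74 in the list mean. The part of the brown fat, adipocyte, epididymis and kidney transcripts in the wild-type differences was not tested. Within groups and wash batches, the correlation with the liver list over 25 arrays was 0.06 for Rbp4 and -0.13 for Rarres2. With the liver mean as a covariate the wild types differed by -0.89 for Rarres2 (adjusted p = 0.0121), by -1.38 for Lep (adjusted p = 0.0364) and by -0.58 for Rbp4 (adjusted p = 0.165), so that Rbp4 no longer passed. Its difference without the covariate was -0.63. Of all probes 7.33% passed between the wild types with the covariate, against 22.1% without it. The same covariate gave 0.56 for Rarres2 (adjusted p = 0.0268) and 0.55 for Rbp4 (adjusted p = 0.0802) in total ChREBP KO, where 6.41% of all probes passed with it. The covariate differs between the lines themselves, and the part of the liver transcripts in these differences was not tested otherwise.

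**Figure D3:**
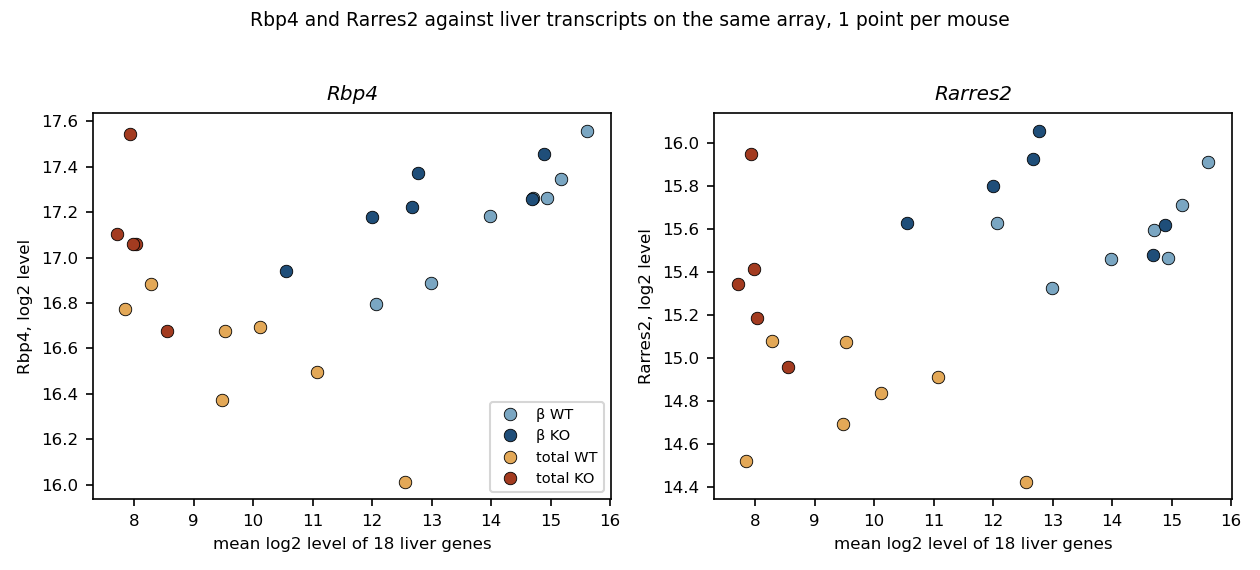
Log2 level of Rbp4 (left) and Rarres2 (right) against the mean log2 level of 18 liver genes on the same array, 1 point per mouse, coloured by group. The total ChREBP KO arrays lie at liver means of 7.71 to 8.56 and 4 of the 5 lie above all total ChREBP WT arrays for both genes, while the ChREBPβ arrays lie at liver means of 10.55 to 15.62.

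Adipocyte markers were set beside the adipokines in the same way. Of the 15 genes, 9 passed in total ChREBP KO (60%, against 8.95% of all probes), 7 higher and 2 lower. Named after their values were seen, Adrb3, the adrenergic receptor of adipocytes, rose by 1.23 and Lpl, the lipase that frees fatty acids from lipoproteins, by 0.55, while Slc2a4, the insulin-responsive glucose transporter, fell by 1.4. The list mean was 0.13 higher, with 4 of 5 KO arrays above all wild types. The part of this in the adipokine levels was not tested. Adipoq had the highest correlation of the 9 genes with the adipocyte list within groups and wash batches, 0.68 over 25 arrays, and Nampt followed at 0.65. It was 0.01 for Rarres2, 0.06 for Lep and -0.03 for Apln.

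Apelin was the other gene beside Lep with an unadjusted p under 0.05 in ChREBPβ KO, and it was the adipokine with the largest difference in total ChREBP KO. Its log2 level was 9.13, 9.56 and 10.25 in ChREBPβ WT and 9.47, 10.31 and 10.96 in ChREBPβ KO, where 3 of the 6 KO arrays lay above all wild types. Total ChREBP WT arrays were at 9.65, 10.07 and 10.64, and the 5 total ChREBP KO arrays at 10.8, 11.36, 11.17, 10.61 and 10.7, 4 of them above all wild types. The difference was 0.71 in ChREBPβ KO (95% interval 0.22 to 1.2, adjusted p = 0.373) and 0.78 in total ChREBP KO (0.27 to 1.3, adjusted p = 0.0518), and neither passed. In total ChREBP KO the adjusted p lay just above the threshold. It was 0.0305 to 0.129 over the alternative settings and was under 0.05 in 7 of the 14. The difference between the effects was 0.07 (95% interval -0.63 to 0.78), an interval too wide to show that they were alike. Within wash batch 1 the ChREBPβ KO difference was -0.22, against 1.64, 0.34 and 1.43 in the others, while the total ChREBP KO difference was 0.37 to 1.04 in all 4.

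Nampt did not pass in any comparison. Its log2 level was 11.76, 12.21 and 12.69 in ChREBPβ WT, 11.86, 12.05 and 12.24 in ChREBPβ KO and 12.24, 12.42 and 12.59 in total ChREBP WT, and the total ChREBP KO arrays were at 12.48, 12.56, 12.58, 12.45 and 12.59. The knockout differences were -0.15 (-0.39 to 0.1) and 0.09 (-0.16 to 0.35). It was 0.26 higher in the wild types of the total line (adjusted p = 0.0998). The spread was wider in ChREBPβ WT (SD 0.34) than in the other groups (0.06 to 0.14).

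Neuregulin 4 was read by 4 probes that did not give the same call. The leading probe was at 11.96, 12.29 and 12.97 in ChREBPβ WT, 11.9, 12.18 and 12.46 in ChREBPβ KO and 12.41, 12.56 and 12.95 in total ChREBP WT. The 5 total ChREBP KO arrays were at 12.75, 13.01, 12.81, 12.53 and 13.12. It was not called between the wild types (0.24, SE 0.15, adjusted p = 0.249). Of the other probes, the one that spans 8559 bases was called higher in total ChREBP WT, at 0.55 (SE 0.16, adjusted p = 0.0152), as was the one at 55074489, at 0.5 (SE 0.17, adjusted p = 0.037). The probe at 55088520 had 0.39 (adjusted p = 0.0879). All 4 probes thus went up, by 0.24 to 0.55, and 2 passed. The mean of the 4 probes differed by 0.42 and passed (adjusted p = 0.0391).

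The spanning probe is not in the authors' table, and its raw intensity had a median of 1950 in WT and 1620 in KO mice of the ChREBPβ line and of 2640 and 2950 in those of the total line. The wild types ranged from 1020 to 2660 and from 1780 to 4020. Its groups overlapped, and on the normalised scale 2 of the 7 wild-type arrays of the total line lay above all those of the ChREBPβ line. No Nrg4 probe passed in a knockout comparison. The 4 differences were -0.2 to -0.14 in ChREBPβ KO and 0.14 to 0.42 in total ChREBP KO. The probe at 55088520 had all 5 total ChREBP KO arrays (11.56 to 12.32) above all 7 wild types (10.93 to 11.5), where 6.92% of all probes separated these groups, with an adjusted p of 0.165, and its difference between the effects was 0.56 (adjusted p = 0.296).

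**Figure D4:**
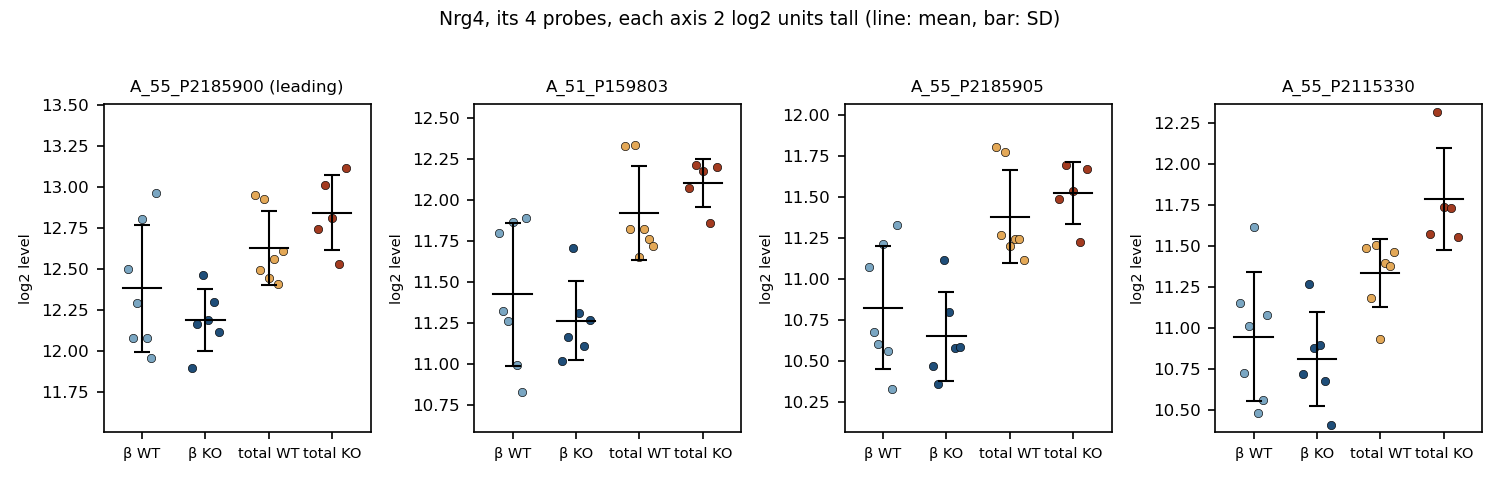
Log2 level of the 4 Nrg4 probes by group, 1 point per mouse, with group mean (line) and SD (bar), each axis 2 log2 units tall and not starting at 0. The total ChREBP WT mean lies above the ChREBPβ WT mean on each probe, by 0.24 on the leading probe and 0.55 on the spanning one.

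The levels of the 9 genes were also compared with each other over the 25 arrays, which share groups, wash batches and scaling, and these correlations are descriptions. Rbp4 and Rarres2 rose and fell together (Pearson r = 0.86, Spearman rho = 0.84), and r was 0.72 after group and wash batch means were taken out. Lep went with Rarres2 (r = 0.77, within groups 0.44) and against Nrg4 (-0.76, within groups -0.63), Nampt (-0.73, within groups -0.49) and Cfd (-0.67, within groups -0.78). The Cfd values are ranks near the top, as described above. Nampt went with Retn (0.79, within groups 0.62). Over all arrays Apln had an r of 0.3 at most in size with any of the others. Within groups its r was -0.55 with Cfd, -0.45 with Nampt, 0.38 with Lep and -0.37 with Retn, and smaller in size with the rest.

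**Figure D5:**
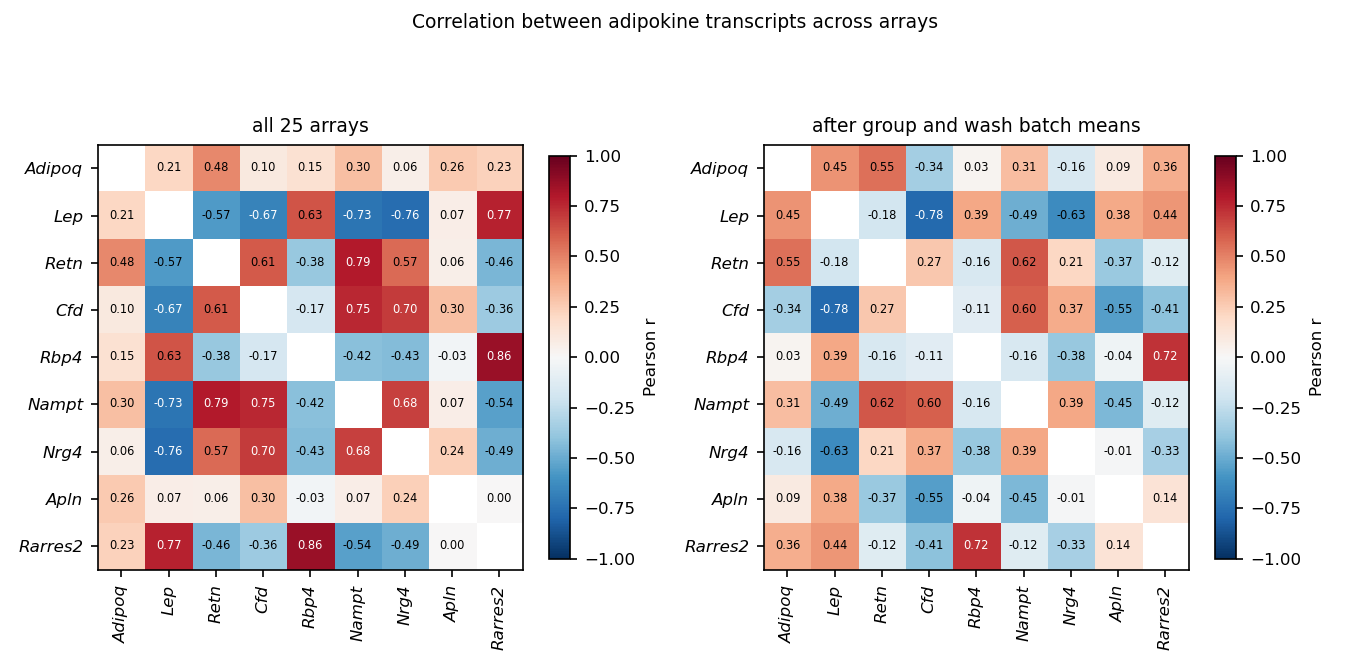
Pearson correlation between the log2 levels of the leading probes over 25 arrays (left) and after group and wash batch means were taken out (right), red above 0 and blue below 0. The highest value off the diagonal is that of Rbp4 and Rarres2, 0.86 on the left and 0.72 on the right, and the lowest on the left is that of Lep and Nrg4, -0.76.

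Of all other named probes, those most like Lep over the arrays were Dusp3 (r = 0.96, within groups 0.9), Malt1 (0.95, within groups 0.94) and Tsc22d2 (0.95, within groups 0.92). For Rarres2 they were Slc6a13 (0.91, within groups 0.73), Cd1d1 (0.9) and Duoxa1 (0.9), and for Rbp4 they were St3gal5 (0.87), Slc6a13 (0.86) and Rarres2 itself (0.86). For Adipoq they were Kctd21 (0.86), Gpd1l (0.86) and Herpud2 (0.84). Nampt was most like Igf2bp2 (0.91), Naa20 (0.9) and Dand5 (0.9), and Nrg4 most like Slc5a6 (0.89), Mrpl42 (0.86) and L3hypdh (0.85). The highest values were lower for Retn (0.84, AI837181, then Mcur1 at 0.84 and Eif2ak2 at 0.82) and for Apln (0.81, Neto2, then Mfsd8 at 0.8 and Itga6 at 0.79). For Cfd they were Rwdd3 (0.92), Car13 (0.92) and Gm19531 (0.91).

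Of 41 receptors and partners of the adipokines, 40 had a kept probe. None passed in ChREBPβ KO, where the median difference was 0. Before adjustment 8 of the 40 passed there, against 9.21% of all probes. With both isoforms lost 3 of the 40 passed (7.5%, against 8.95% of all probes), with a median of -0.04. Nmnat3, which turns the product of Nampt into NAD in mitochondria, fell by 1.19 (SE 0.15, adjusted p = 1.18e-05). Its KO and WT arrays did not overlap, a separation that 6.92% of all probes had. Rbp7, a retinol binding protein inside cells of adipose tissue, fell by 0.55 (SE 0.16, adjusted p = 0.0394), a call that was lost with the liver mean as a covariate, where 6.41% of all probes passed. Gstk1, which promotes assembly of adiponectin, rose by 0.43 (SE 0.08, adjusted p = 0.000625), also with no overlap. For these 3 the difference between the effects also passed, at -0.76 for Nmnat3 (adjusted p = 0.0465), -1.05 for Rbp7 (adjusted p = 0.00801) and 0.48 for Gstk1 (adjusted p = 0.0107). Without total ChREBP WT replicate 2, Nmnat3 no longer passed for the difference between the effects.

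Receptors of some of the 9 proteins were picked by role after their values were seen, and other receptors in the list are not given. In total ChREBP KO the leptin receptor Lepr was at 0.08 (SE 0.2, adjusted p = 0.898), the apelin receptor Aplnr at 0.18 (SE 0.19, adjusted p = 0.694) and the chemerin receptor Cmklr1 at -0.06 (SE 0.1, adjusted p = 0.826). Of the adiponectin receptors, Adipor1 was at 0 (SE 0.07, adjusted p = 0.987) and Adipor2 at -0.26 (SE 0.09, adjusted p = 0.0852). The KO and WT arrays did not overlap for Adipor2, a separation that 6.92% of all probes had. The retinol transporter Stra6 was at 0.06 (SE 0.19, adjusted p = 0.916) and the neuregulin receptor Erbb4 at 0.17 (SE 0.06, adjusted p = 0.129). None of these passed in any of the 4 comparisons. Stra6l, another transporter of retinol, was not among those picked, and it passed between the wild types (-3.72).

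In the wild types 10 of the 40 receptors and partners passed (25%, against 22.1% of all probes), 2 higher and 8 lower. Ttr, the plasma carrier of Rbp4 and itself in the liver list, had the largest difference, -6.06 (SE 1.07, adjusted p = 0.000433), and Stra6l, a transporter of retinol bound to Rbp4 in liver, had -3.72 (SE 0.6, adjusted p = 0.000212). Cfb, the substrate of adipsin, was at -0.86 (adjusted p = 0.000347). Among enzymes of NAD synthesis Nmnat3 was at 0.74 (adjusted p = 0.000611), Naprt at -0.7 (adjusted p = 0.00268) and Nmrk1 at -0.59 (adjusted p = 0.00081). With the liver mean as a covariate 4 of the 40 passed, and of the 6 genes named here only Nmnat3 was among them. With that covariate 7.33% of all probes passed in this comparison.

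Relatives of adiponectin and resistin (20 of 22 genes kept) gave 0 calls for either knockout and for the difference between the effects (limma). Before adjustment 2 (ChREBPβ KO), 4 (total ChREBP KO) and 1 (difference between the effects) passed. Of all probes 0.00505%, 8.95% and 3.24% passed in these comparisons, and 9.21%, 20.4% and 12.9% before adjustment. The wild types differed in 2 of them (10%, against 22.1% of all probes), C1qtnf7 at -0.39 (adjusted p = 0.025) and C1qtnf12 at 0.31 (adjusted p = 0.0121), both of the C1q and TNF related family that adiponectin belongs to. Without total ChREBP WT replicate 2, C1qtnf6 passed in place of C1qtnf7.

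Of 50 other factors that fat secretes, 47 had a kept probe, and 0 passed in ChREBPβ KO. Before adjustment 9 of the 47 passed there, against 9.21% of all probes. Loss of both isoforms gave 7 calls (14.9%, against 8.95% of all probes), 4 higher and 3 lower, with a median of -0.04. Fgf21, the fasting and sugar-induced hormone, fell by 3.11 (SE 0.37, adjusted p = 5.62e-06). Angptl8, an inhibitor of lipoprotein lipase activity induced by feeding, fell by 1.75 (SE 0.22, adjusted p = 1.01e-05), and Saa3, an acute phase protein, fell by 2.23 (SE 0.58, adjusted p = 0.0159). Inhbb, a subunit of activins and inhibins, rose by 0.87 (SE 0.18, adjusted p = 0.00232) and Vegfb by 0.42 (SE 0.1, adjusted p = 0.0106). The KO and WT arrays did not overlap for these 5, a separation that 6.92% of all probes had.

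For Fgf21 (-3.27, SE 0.51, adjusted p = 0.000364) and Angptl8 (-1.87, SE 0.3, adjusted p = 0.000489) the difference between the effects also passed. Mean log2 levels of Fgf21 were 8.42 (WT) and 8.54 (KO) in the ChREBPβ line and 10.05 (WT) and 6.95 (KO) in the total line, and those of Angptl8 were 16.17, 16.25, 16.59 and 14.83 in the same order. With the liver mean as a covariate 5 of the 47 passed in total ChREBP KO, where 6.41% of all probes passed. Of the 7 genes, Vegfb and Saa3 were the ones that did not pass. Without total ChREBP WT replicate 2 the same 7 genes passed.

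Of the 47, 7 passed between the wild types (14.9%, against 22.1% of all probes), 2 higher and 5 lower. Sfrp5, an inhibitor of Wnt signalling made by adipocytes, was at -3.24 (SE 0.54, adjusted p = 0.000288), and its mean log2 levels were 13 and 14.43 in ChREBPβ WT and KO against 9.76 and 9.44 in total ChREBP WT and KO. Pm20d1, an enzyme that makes N-acyl amino acids, was at -1.69 (adjusted p = 6.22e-05). Fgf21 was at 1.63 (adjusted p = 0.00165), Inhbb at -0.75 (adjusted p = 0.00211) and Fstl3, which binds activins, at -0.7 (adjusted p = 0.00173). Fam132a, the older name of C1qtnf12 and read by the same probe, was at 0.31 (adjusted p = 0.0121).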

How the data were processed

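Transcripts of pgWAT were measured on 25 single-colour Agilent arrays, 1 per mouse, in the 4 groups given by the sample titles. Replicates were separate mice. The adipokines, the gene lists and the tests were chosen with earlier results of these data known.

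The authors labelled cRNA with Cy3 and scanned and measured the spots with Agilent Feature Extraction 10.10.1.1. Per the file headers the deposited intensity used here was the median over the pixels of each spot, with no background correction, with that of its local background, the mean intensity and the processed signal for alternatives. The authors' deposited table held log2 values of 40561 probes after quantile normalisation, each column with a median of 7.96 and a correlation of at least 0.9998 with the raw log2 intensity of its array. It served as an alternative, since the scanner values allow every step to be repeated. It held 13 of the 14 adipokine probes, and the largest gap to the level used here was 0.16.

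Steps followed the methods of the study, with its filter scaled to these arrays. Spots flagged by the scanner software as found, as positive and significant and as clearly brighter than their background had weight 1. They were kept where this held on 21 arrays or, within the ChREBPβ line, on 6 WT or 5 KO arrays or, within the total line, on 6 WT or 4 KO arrays (42315 of 59305). Outlier spots were set to missing (0 in adipokine probes), log2 values were quantile-normalised and replicated probes merged by their median. Gene names came from a RefSeq table by accession for 32994 probes and by symbol for 10224, and 13387 kept the name on the array. No pair of arrays was identical, and within-group correlations were 0.971 to 0.997.

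All arrays entered 1 limma model (limma 3.58.1, R 4.3.3) of group and wash batch, with 18 residual and 2.5 prior degrees of freedom, and p-values were adjusted by Benjamini-Hochberg over all 39619 probes. Arrays lay on 15 slides and were scanned on 2 days. The fit was tested on simulated arrays (39595 probes, 200 of them changed by 0.5 log2 units) and called 57% of them for ChREBPβ KO, 54.5% for total ChREBP KO and 64.5% between wild types, and 88.5%, 88% and 95% of changes of 1 unit. The simulated noise was normal and independent between probes, without variation that many probes share on an array. The shares therefore depend on this noise and on the 200 changed probes, and they are not the power for the adipokines. Genes of the context lists were named by the largest differences among those called, at most 6 per list and comparison (1 of them is not reported here). The receptors that were not called and the adipocyte, liver and epididymis markers with values were named after their values were seen. Likeness names the 3 genes with the highest correlation. Alternatives covered the authors' table, background correction, scaling, filters, wash batch, slide, scan day, array weights, samples fitted, replicate number, liver transcripts, the probe of a gene and leaving out each array. The scaling of the median intensity without ranks, and the 2 settings for the context lists, were added after the data were seen.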

Additional observations from a re-analysis of the deposited data

Results flagged for a closer look

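Of 56 sets of arrays (14 probes in 4 groups), 2 held an array far from the others of its group by Dixon's ratio at the 95% level, and chance flags about 1 set in 20. The dimmer Cfd probe was at a log2 level of 18.34 on the total ChREBP WT array of replicate 5, where the other 6 arrays lay between 18.51 and 18.61 (gap over range 0.623). The Nrg4 probe designed on a cDNA was at 12.32 on the total ChREBP KO array of replicate 2, where the other 4 lay between 11.56 and 11.73 (gap over range 0.767). Neither is the leading probe of its gene, and no count of adipokines called rests on them.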

How the results depend on the processing

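No adipokine was called in ChREBPβ KO or in the difference between the effects under any of the alternatives or with any array left out (0 in each). Under the alternatives other than leaving out an array, 0% to 0.119% of all probes passed in ChREBPβ KO. For the difference between the effects it was 1.73% to 5.36%. With 1 array left out, 0 to 80 probes passed in all in ChREBPβ KO and 992 to 1549 in the difference between the effects. In total ChREBP KO the count was 2, where 8.95% of all probes passed. With array quality weights it became 4 (Cfd, Rbp4, Apln and Rarres2), where 13.5% of all probes passed. It was 1 (Rarres2) without the filter on dim probes, where 5.75% passed, and with the liver mean as a covariate, where 6.41% passed. With 1 array left out it was 1 to 3, where 2528 to 3784 probes passed in all. The other alternatives gave 2 or 3, where 6.26% to 12.4% of all probes passed. In 3 of them (both scalings to the 75th percentile and the fit of only the compared groups) Rbp4 was not called and Apln was. Between the wild types the count was 3, where 22.1% of all probes passed. With array quality weights it became 5 (Lep, Rbp4, Nampt, Apln and Rarres2), where 30.6% of all probes passed. It was 2 to 4 under the others, where 7.33% to 24.7% passed. With 1 array left out it was also 2 to 4, where 6855 to 9226 probes passed in all. Rarres2 was called in total ChREBP KO and between the wild types under all 14 alternatives and with each array left out. The cause of these shifts was not tested, except that dropping the filter raises the number of probes over which p is adjusted to 56605.

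Whether the replicate number of the titles paired the mice was not settled, since arrays of unlike number were not compared. Same-numbered arrays of different groups deviated together at -0.434 to 0.539, over 0.1 in 9 of 29 pairs. With the replicate block the counts of adipokines called were 0, 2, 0 and 3, as without it. These are for ChREBPβ KO, total ChREBP KO, the difference between the effects and the wild types. Of all probes 0%, 6.26%, 1.73% and 19.1% passed with the block, against 0.00505%, 8.95%, 3.24% and 22.1% without it. All probes called in the difference between the effects went from 1284 to 685.

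Signs turned only for differences that were not called. Those of the authors' table were 0 for Retn in ChREBPβ KO and 0 for Adipoq between the wild types. With the processed signal they were 0.01 for Cfd and 0 for Rbp4 in ChREBPβ KO and 0.16 for Adipoq between the wild types, and with the median signal scaled to the 75th percentile 0.01, -0.02 and 0.11. Array weights gave 0.03 for Adipoq between the wild types. The liver covariate gave -0.04 for Adipoq in ChREBPβ KO, and 0 in total ChREBP KO and -0.02 between the wild types for Retn. With 1 array left out the range was -0.01 to 0.13 for Rbp4 in ChREBPβ KO, -0.12 to 0.2 for Apln in the difference between the effects and -0.08 to 0.04 for Adipoq between the wild types.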
